A study of Mus musculus with 4 samples.

Results

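Epcam, Cd24a and 8 regulators of epithelial identity (Esrp1, Esrp2, Grhl1, Grhl2, Ovol1, Ovol2, Elf3 and Ehf) were followed in RNA sequencing counts of cells labelled primary mouse breast cancer-associated fibroblasts. The 10 genes were taken by symbol from the 54532 genes of the count files, and each symbol matched 1 gene. The series holds 2 irradiated libraries and 2 unirradiated libraries, each with an A and a B, all from MMTV-PyMT tumours carrying the label Dll1 mcherry+ in C57BL/6 mice. In MMTV-PyMT mice a viral promoter active in mammary epithelium drives the polyoma middle T oncogene, so the tumour cells are epithelial. The irradiated tumours received 6 Gy of targeted radiation, the treatment label places it at day 6, and the titles of all 4 libraries carry day 6. Age, the interval between radiation and collection, and whether A and B came from separate animals are not stated in the labels. The p-values here thus rest on spread between A and B libraries, which may be technical. In edgeR's test the variance of a gene was drawn mostly from all tested genes together, and little from its own 2 libraries per group. A small p-value thus does not show that A and B lay close together for that gene.

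These genes describe what makes a cell epithelial. EPCAM is a surface adhesion protein of epithelial cells that can be cut by membrane proteases, and CD24 is a heavily glycosylated surface protein used to recognise mammary epithelial cells. ESRP1 and ESRP2 are RNA-binding proteins that set epithelial splicing of genes such as Fgfr2 and Cd44. Grainyhead-like factors (GRHL) activate junction genes, OVOL zinc-finger proteins repress mesenchymal programmes, and ELF3 and EHF are ETS-family transcription factors found mainly in epithelia.

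The counts did not look like those of fibroblasts alone. Epcam reached 1085 and 1129 CPM (read counts scaled to library size, with TMM factors) in irradiated A and B, against 1221 and 1201 CPM in unirradiated A and B. By mean CPM only 0.407% of the 15961 tested genes were more abundant than Epcam. Pdgfra, the receptor recognised by the antibody used on the digested tumours, was at 22.9 and 24.6 CPM in the irradiated libraries and at 5.43 and 5.74 CPM in the unirradiated ones. The 14 fibroblast markers summed to 1726 and 1742 CPM in irradiated and to 599 and 561 CPM in unirradiated libraries. In irradiated A and B, Col1a1 held 613 and 618 CPM of this, Col3a1 503 and 516 CPM and Col1a2 355 and 350 CPM. In unirradiated A and B these collagen genes held 188 and 181, 129 and 116, and 130 and 120 CPM. The 19 luminal and basal epithelial markers summed to 11186 and 11634 CPM in irradiated and to 14367 and 14486 CPM in unirradiated libraries. The casein gene Csn3 alone held 3130 and 3275 CPM of this in irradiated and 5756 and 5825 CPM in unirradiated libraries. By the test given below 6 of the 19 markers rose and 9 fell, where 33.9% of all tested genes rose and 32.5% fell. The sum thus does not stand for each of them. The 10 leukocyte and endothelial markers summed to 472 and 466 CPM in irradiated and to 167 and 166 CPM in unirradiated libraries. Cd14 alone held 301 and 294 CPM of this in irradiated and 69.6 and 76.3 CPM in unirradiated libraries. Of the 9 tested markers 8 rose and 1 fell, beside those same shares of all tested genes. The rises of Cd68 (log2 fold change 0.28) and Pecam1 (0.23) were small. The part of these marker shifts in the results below was not tested, and in such bulk samples fewer cells of a type and less RNA per cell cannot be told apart. Total counts per library were 15817969 and 23763830 in irradiated A and B and 17569515 and 13011489 in unirradiated A and B.

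In the irradiated libraries 8 of the 10 genes were lower, 1 was higher and 1 did not pass edgeR's quasi-likelihood test, with p-values adjusted over all tested genes by Benjamini-Hochberg and a threshold of 0.05. The same call was made for 32.5% of all tested genes in the lower and 33.9% in the higher direction, 66.4% in all, so a call by itself was common. The same shares stand behind the counts of each gene list below. The falls ranged from 1.09-fold for Epcam to 3.42-fold for Ovol1, and the median log2 fold change of the 10 genes was -0.32, against -0.00417 over all tested genes. When edgeR had to show a change beyond 1.5-fold, Ovol1 and Grhl1 were called lower (2 genes) and 0 higher, where the background was 23.7% of all tested genes, 11% lower and 12.7% higher. The unadjusted p of that edgeR test also fell under 0.05 for 2 lower and 0 higher genes, and no other tool was run against 1.5-fold. All 10 genes passed the filter on low counts. Together they held 0.271% and 0.276% of all counts in irradiated A and B, against 0.311% and 0.307% in unirradiated A and B.

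**Figure D1:**
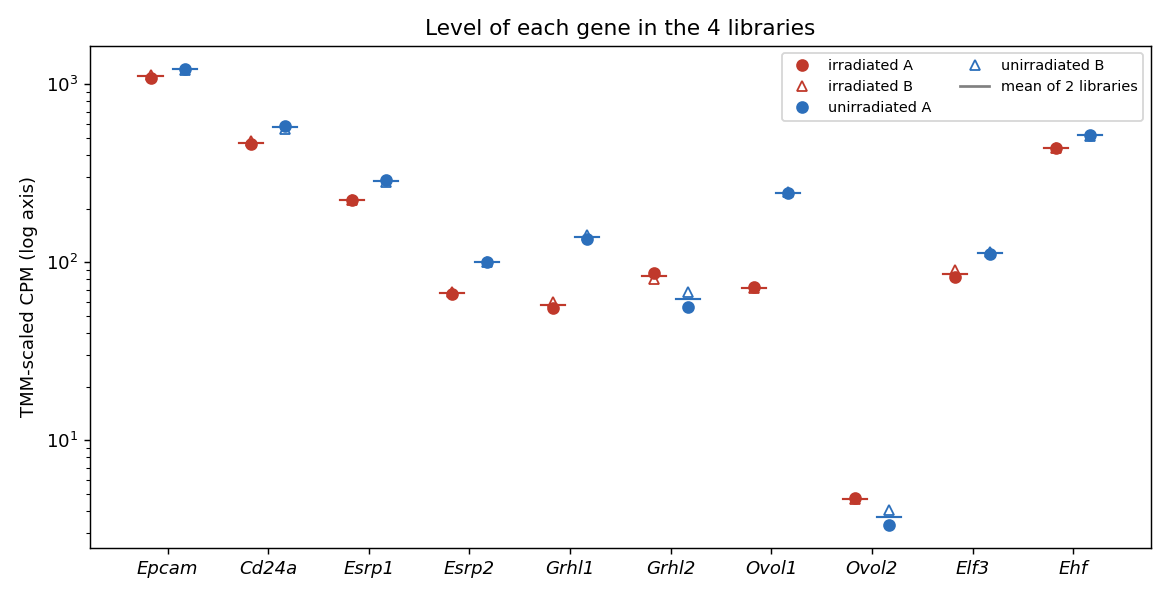
Level of each gene in TMM-scaled CPM on a log axis, with irradiated libraries in red left of unirradiated libraries in blue, filled circles for library A, open triangles for B and a line at the mean of 2 libraries. Ovol1 shows the widest gap, with 72.8 and 71.3 CPM in irradiated against 245 and 248 CPM in unirradiated libraries, while Grhl2 and Ovol2 are the genes whose irradiated libraries lie above the unirradiated ones.

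The genes of both surface proteins were called lower, by less than 1.5-fold. Epcam (chromosome 17, 87635979 to 87651106, plus strand, mm10) averaged 1107 ± 31.1 CPM in irradiated and 1211 ± 14.1 CPM in unirradiated libraries (SD, n = 2 each). Its log2 fold change was -0.13 (SE 0.0367, adjusted p = 0.00154, edgeR's quasi-likelihood test), and 84.1% of tested genes had a larger absolute change. The call was lost without unirradiated A (-0.12, adjusted p = 0.0610) and with no filter on low counts (-0.07, adjusted p = 0.203), and the direction turned to 0.10 when a dependence on gene length and GC was taken out, as described further on. The direction and the call of Epcam thus depended on the setting.

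Cd24a (chromosome 10, 43578284 to 43584265, plus strand) stood at 462 and 477 CPM in irradiated A and B, against 581 and 561 CPM in unirradiated A and B. It fell 1.22-fold, with a log2 fold change of -0.28 (SE 0.0404, adjusted p = 9.56e-09, edgeR's quasi-likelihood test). B cells, neutrophils and red cell precursors also carry CD24 in the mouse. Of 12 genes of those cells and of CD24 ligands 8 were tested, of which 7 were lower and 1 was higher, and the median log2 fold change was -1.39. They summed to 54.1 and 27.6 CPM in irradiated and to 81.4 and 74.2 CPM in unirradiated libraries, and their part in the fall of Cd24a was not tested. The B cell gene Ms4a1 had 0 counts in both irradiated libraries, against 16 counts summed over the unirradiated libraries, and was not tested. Hbb-bs, a beta-globin gene that has near-identical copies and is therefore uncertain, had a log2 fold change of -3.02. The neutrophil genes Ngp and S100a9 had log2 fold changes of -1.52 and -1.26, but both calls were lost without irradiated B, at -0.35 and -0.24, and with DESeq2. The higher gene was Selp, encoding P-selectin, a lectin that binds CD24, at 3.01 and 3.55 CPM in irradiated against 1.07 and 1.29 CPM in unirradiated libraries.

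The promoter of Epcam is shown because it held matches to both kinds of site that epithelial identity factors and their opponents are known to use. RefSeq promoter windows on GRCm38.p6 run from 250 bases before to 50 bases after a start site, and 4 of the 10 genes (Epcam, Elf3, Grhl1 and Ovol2) had one. Each was searched on both strands for CACCTG, the E-box letters bound by ZEB and SNAI repressors, for ACCGGT, the core of the GRHL motif, for CCGTTA, the OVOL motif, and for the ETS core GGAA. These motifs do not overlap one another in the windows printed here. Capitals mark matches to the first 3 motifs, and lower case the rest.
Epcam, chr17:87635729-87636028, plus strand: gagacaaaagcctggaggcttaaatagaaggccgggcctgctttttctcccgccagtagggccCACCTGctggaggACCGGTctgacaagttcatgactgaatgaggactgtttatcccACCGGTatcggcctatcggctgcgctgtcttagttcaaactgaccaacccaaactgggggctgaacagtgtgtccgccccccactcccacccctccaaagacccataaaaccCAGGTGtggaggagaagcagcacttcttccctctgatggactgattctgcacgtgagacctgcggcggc
Elf3, chr1:135258423-135258722, minus strand: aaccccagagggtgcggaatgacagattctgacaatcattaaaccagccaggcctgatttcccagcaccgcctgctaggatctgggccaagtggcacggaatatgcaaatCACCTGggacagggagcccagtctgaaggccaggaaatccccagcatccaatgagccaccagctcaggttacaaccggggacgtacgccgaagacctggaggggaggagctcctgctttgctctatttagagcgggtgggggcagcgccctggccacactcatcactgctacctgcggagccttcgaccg
Grhl1, chr12:24572037-24572336, plus strand: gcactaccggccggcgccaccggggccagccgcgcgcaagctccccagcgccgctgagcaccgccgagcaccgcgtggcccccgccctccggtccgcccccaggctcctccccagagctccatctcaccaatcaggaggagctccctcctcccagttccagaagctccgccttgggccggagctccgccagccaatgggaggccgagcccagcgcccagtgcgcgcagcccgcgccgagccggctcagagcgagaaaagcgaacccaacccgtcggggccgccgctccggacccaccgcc

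The Epcam window held 2 E-boxes, beginning 187 and 19 bases before the start site, and 2 GRHL cores, beginning 174 and 131 bases before it. Among all 32851 promoter windows 20.2% held an E-box of these letters and 2.33% a GRHL core, 18 windows held 2 or more GRHL cores, and 1 window, that of Epcam, held 2 or more of each. The Elf3 window held 1 E-box, beginning 140 bases before its start site. Neither the 2 Grhl1 windows nor the Ovol2 window held a match to the first 3 motifs, and the OVOL letters occurred in 2.76% of all windows. The ETS core was in 96.0% of all windows and in each of these, which makes it uninformative. A match is a run of letters and not a measured binding site.

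Both splicing regulators fell. Esrp1 (chromosome 4, 11331933 to 11386783, minus strand) was at 224 and 223 CPM in irradiated A and B and at 289 and 282 CPM in unirradiated A and B. The fall was 1.28-fold, a log2 fold change of -0.35 (SE 0.0451, adjusted p = 4.75e-10, edgeR's quasi-likelihood test). Esrp2 (chromosome 8, 106130319 to 106136974, minus strand) was at 66.6 and 67.6 CPM in irradiated and at 101 and 100.5 CPM in unirradiated libraries. It fell 1.5-fold, a log2 fold change of -0.58 (SE 0.0596, adjusted p = 2.91e-13, edgeR's quasi-likelihood test). Libraries of a group lay within a few per cent of each other for both genes. Exons of Esrp2 overlap Nfatc3, a transcription factor gene on the opposite strand, which rose (log2 fold change 0.55), and the library kit does not mark strand, so reads in the overlap cannot be assigned.

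Other splicing regulators moved in both directions. Of 12 listed, 6 were higher and 4 lower (median log2 fold change 0.09), where 33.9% of all tested genes were higher and 32.5% lower. Rbm47, which shares epithelial splicing targets with the ESRP proteins, also fell, to 126 and 124 CPM in irradiated against 156 and 157 CPM in unirradiated libraries (log2 fold change -0.33). Qk, encoding the splicing regulator quaking of mesenchymal cells, rose to 159 and 159 CPM in irradiated libraries, against 92.3 and 92.6 CPM in unirradiated ones (log2 fold change 0.79). Of the muscleblind genes, Mbnl1 rose (0.51) and Mbnl2 fell (-0.40). Corrected for length and GC, this list held 2 higher and 7 lower genes.

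Of 10 genes known to be spliced by ESRP proteins, 4 were higher and 1 was lower at the level of the whole gene. Among all tested genes 33.9% were higher and 32.5% lower. Fgfr2, a receptor whose epithelial and mesenchymal isoforms the ESRP proteins separate, rose to 13.4 and 12.1 CPM in irradiated libraries, against 3.76 and 5.34 CPM in unirradiated ones (log2 fold change 1.51). Cd44, encoding a hyaluronan receptor, rose (0.29), as did Nf2, encoding merlin (0.28), and Ctnnd1, encoding p120-catenin, fell (-0.36). Counts per gene carry no information on which isoform was made. With the length and GC trend removed the list stood at 1 higher and 5 lower, and the calls of Cd44 and Nf2 were lost.

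The grainyhead-like pair moved in opposite directions. Grhl1 (chromosome 12, 24572283 to 24617391, plus strand) was at 55.1 and 59.8 CPM in irradiated A and B, against 134 and 143 CPM in unirradiated A and B. It fell 2.40-fold, a log2 fold change of -1.26 (SE 0.0594, adjusted p = 1.86e-28, edgeR's quasi-likelihood test). Grhl2 (chromosome 15, 37233036 to 37363569, plus strand) was at 86.9 and 80.8 CPM in irradiated and at 56.2 and 68.2 CPM in unirradiated libraries, with a wide spread within the unirradiated group. It rose 1.36-fold, a log2 fold change of 0.44 (SE 0.0677, adjusted p = 7.03e-08, edgeR's quasi-likelihood test), but the call was lost once the length trend (0.13, adjusted p = 0.107) or the length and GC trend (0.14, adjusted p = 0.0620) was removed. Per kilobase of gene length, the level of Grhl2 was 1.01 and 0.869 times that of Grhl1 in irradiated A and B, against 0.269 and 0.307 times in unirradiated A and B. Grhl1 was thus the more abundant of the pair in the unirradiated libraries, and in the irradiated libraries their levels were not separated.

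The third grainyhead-like gene, Grhl3, was low and fell, at 8.72 and 7.06 CPM in irradiated against 12.6 and 12.1 CPM in unirradiated libraries (log2 fold change -0.68). The summed level of Grhl1 and Grhl2 per kilobase was 20.04 and 20.2 CPM in irradiated and 30.8 and 33.7 CPM in unirradiated libraries. An annotated antisense gene, Gm16136, overlaps exons of Grhl2 and had 155 and 349 counts in irradiated and 501 and 373 counts in unirradiated libraries. It fell (log2 fold change -1.31) while Grhl2 rose, and without strand its reads and those of Grhl2 cannot be told apart in the overlap.

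The OVOL pair was led by Ovol1 in every library. Ovol1 (chromosome 19, 5549137 to 5560575, minus strand) was at 72.8 and 71.3 CPM in irradiated A and B, against 245 and 248 CPM in unirradiated A and B. This 3.42-fold fall was the largest among the 10 genes, a log2 fold change of -1.77 (SE 0.0521, adjusted p = 1.21e-39, edgeR's quasi-likelihood test), and 8.83% of tested genes had a larger absolute change. Ovol2 (chromosome 2, 144305175 to 144332146, minus strand) was the least abundant, with 4.75 and 4.64 CPM in irradiated and 3.34 and 4.05 CPM in unirradiated libraries. These values rest on 79 and 115 counts in irradiated and 56 and 50 counts in unirradiated A and B, and the difference did not pass (log2 fold change 0.36, SE 0.231, adjusted p = 0.161, edgeR's quasi-likelihood test). It passed at 0.52 (adjusted p = 0.0419) when the length trend was removed and at 0.56 (adjusted p = 0.0299) when the length and GC trend was removed, within a range of adjusted p from 0.0299 to 1 over its 14 alternatives.

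Ovol2 per kilobase was 0.0896 and 0.0893 times the level of Ovol1 in irradiated A and B, against 0.0188 and 0.0224 times in unirradiated A and B. The summed level of the pair was 27.3 and 26.8 CPM per kilobase in irradiated and 85.9 and 87.4 CPM per kilobase in unirradiated libraries. Ovol3 had 1 and 0 counts in irradiated and 1 and 2 counts in unirradiated libraries and was not tested.

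**Figure D2:**
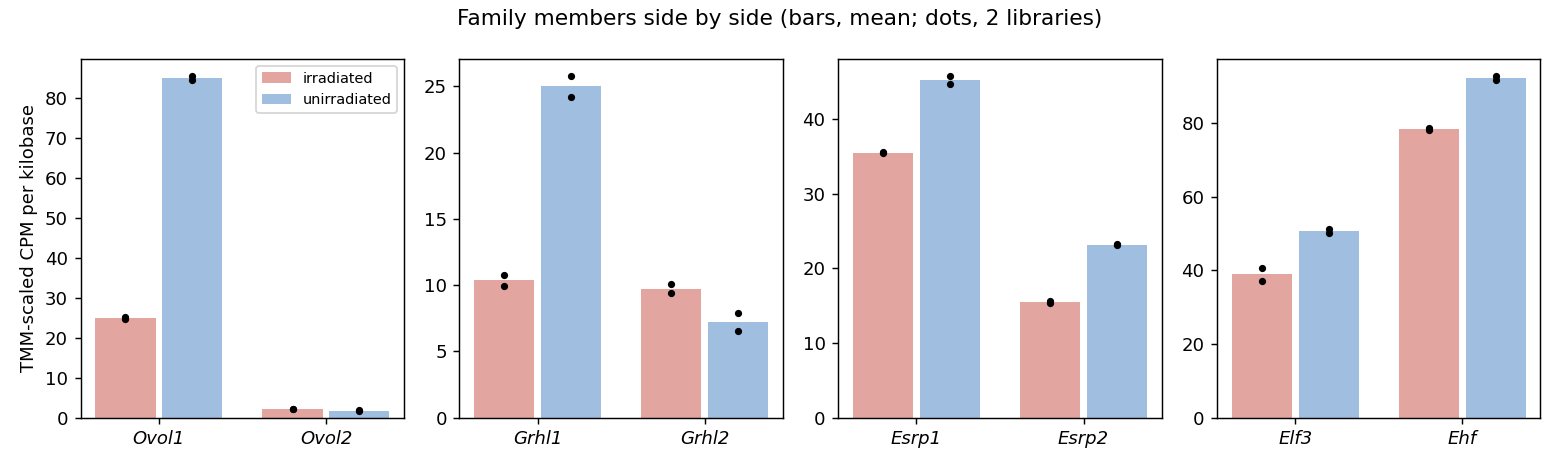
TMM-scaled CPM per kilobase of gene length for the OVOL, GRHL, ESRP and ETS pairs, with irradiated bars in red left of unirradiated bars in blue, bars for the mean and dots for the 2 libraries. Each panel has its own axis from 0. Ovol1 and Grhl1 drop well below their unirradiated levels, and the bars of Grhl1 and Grhl2 are of like height in irradiated libraries.

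The epithelial ETS factors fell by less. Elf3 (chromosome 1, 135253575 to 135258568, minus strand) was at 82.2 and 90.5 CPM in irradiated A and B and at 111 and 114 CPM in unirradiated A and B. It fell 1.30-fold, a log2 fold change of -0.37 (SE 0.0578, adjusted p = 7.02e-08, edgeR's quasi-likelihood test). Ehf (chromosome 2, 103263433 to 103303278, minus strand) was more abundant and steadier, at 436 and 439 CPM in irradiated and 518 and 512 CPM in unirradiated libraries. Its fall was 1.18-fold, a log2 fold change of -0.24 (SE 0.0405, adjusted p = 7.49e-07, edgeR's quasi-likelihood test). Per kilobase, Ehf was at 2.11 and 1.93 times the level of Elf3 in irradiated and at 1.85 and 1.79 times in unirradiated libraries.

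Of the relatives of these families 7 were tested, of which 1 was higher and 3 were lower. Spdef, an ETS factor of secretory epithelium, fell by far the most, to 10.9 and 10.1 CPM in irradiated libraries, against 82.5 and 85.8 CPM in unirradiated ones (log2 fold change -3.01, SE 0.0867). That 8.04-fold difference was larger than that of any of the 10 genes. Elf5, the ETS factor of milk-secreting alveolar cells, did not pass, with 216 and 219 CPM in irradiated and 206 and 216 CPM in unirradiated libraries (adjusted p = 0.383, edgeR's quasi-likelihood test). The broadly expressed Elf1 (0.06) and Elf2 (-0.09) did not pass. With the length trend removed Elf1 (-0.18), Elf2 (-0.43) and Elf5 (-0.16) were called lower, and Elf2 also under upper-quartile scaling (-0.13). Elf4, an ETS factor of blood cells, was higher (0.63), a call lost in 3 of 14 alternatives. These were DESeq2 (adjusted p = 0.0589), the length trend removed (0.41) and the test against 1.5-fold.

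**Figure D3:**
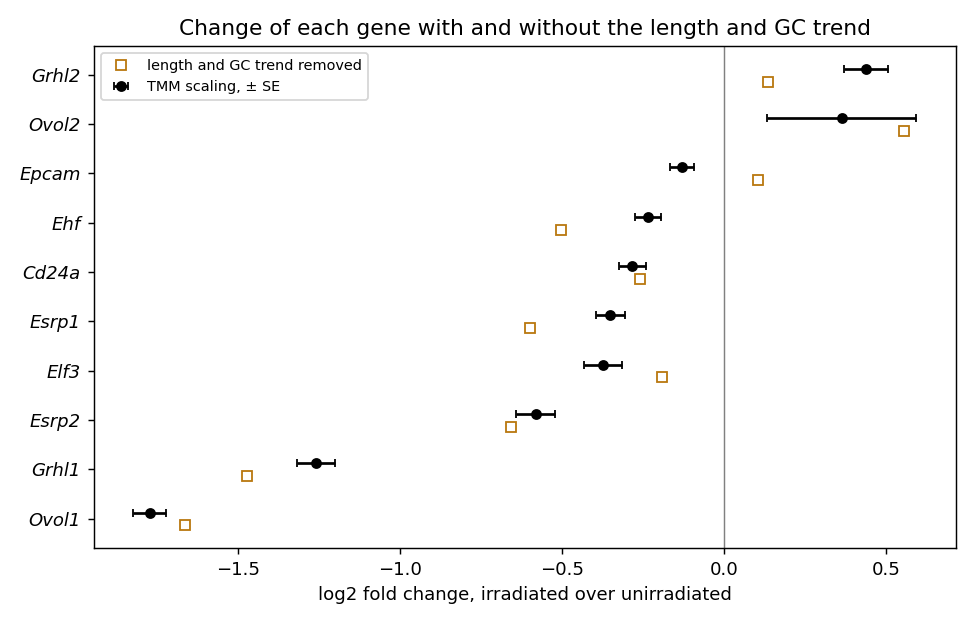
Log2 fold change of irradiated over unirradiated libraries for each gene, as black points with bars of ± 1 SE from the TMM-scaled fit and as open squares with the dependence on length and GC taken out. Ovol1 and Grhl1 stay at the far left in both, Epcam lies at -0.13 and 0.10 on either side of 0, and Grhl2 moves to 0.14.

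Set in order of level per kilobase, Epcam led both groups, with 532 and 553 CPM per kilobase in irradiated A and B and 599 and 589 CPM per kilobase in unirradiated A and B. Cd24a and Ehf followed in both groups, and Ovol2 was last, with 2.25 and 2.20 CPM per kilobase in irradiated and 1.58 and 1.91 CPM per kilobase in unirradiated libraries. Ovol1 was sixth in the irradiated libraries, at 25.1 and 24.6 CPM per kilobase behind Elf3 and Esrp1, and in the unirradiated libraries it was the fourth, at 84.3 and 85.5 CPM per kilobase. The other ranks were Esrp2, Grhl1 and Grhl2 after Ovol1 in irradiated libraries, and Elf3, Esrp1, Grhl1, Esrp2 and Grhl2 after Ovol1 in unirradiated libraries. Neighbours in the order did not overlap between libraries of a group, except Grhl1 and Grhl2 in the irradiated group, at 9.96 and 10.8 CPM per kilobase against 10.1 and 9.38 CPM per kilobase.

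The log2 fold change of a gene was related to its length in these libraries, which touches genes with small and with large changes. With the tested genes in 4 classes of about equal size, in the shortest class (56 to 2320 bases) the median log2 fold change was -0.38, and 580 genes were higher and 1841 lower. In the 2 middle classes the medians were -0.06 and 0.10, and in the longest class (6294 to 123179 bases) the median was 0.23, with 2062 genes higher and 822 lower. Spearman's rho between length and log2 fold change was 0.31 across the 15961 tested genes, which share 4 libraries and are not independent. Epcam, Elf3 and Ovol2 lie in the shortest class, at 2040, 2217 and 2113 bases, and Grhl2 and Esrp1 in the longest, at 8613 and 6305 bases.

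Removing a smooth dependence on length and GC moved most of the 10 values, with no set relation to the size of the change. The log2 fold change of Ovol1 became -1.66 and that of Grhl1 -1.47, while that of Esrp2 became -0.66 and that of Cd24a -0.26. Esrp1 and Ehf fell further, at -0.60 and -0.50, and Elf3 by less, at -0.19 (adjusted p = 0.00134, edgeR's quasi-likelihood test). Epcam was higher at 0.10 (adjusted p = 0.00313) and Ovol2 higher at 0.56, so that 2 genes were higher and 7 lower under this setting. The cause of the trend was not tested.

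**Figure D4:**
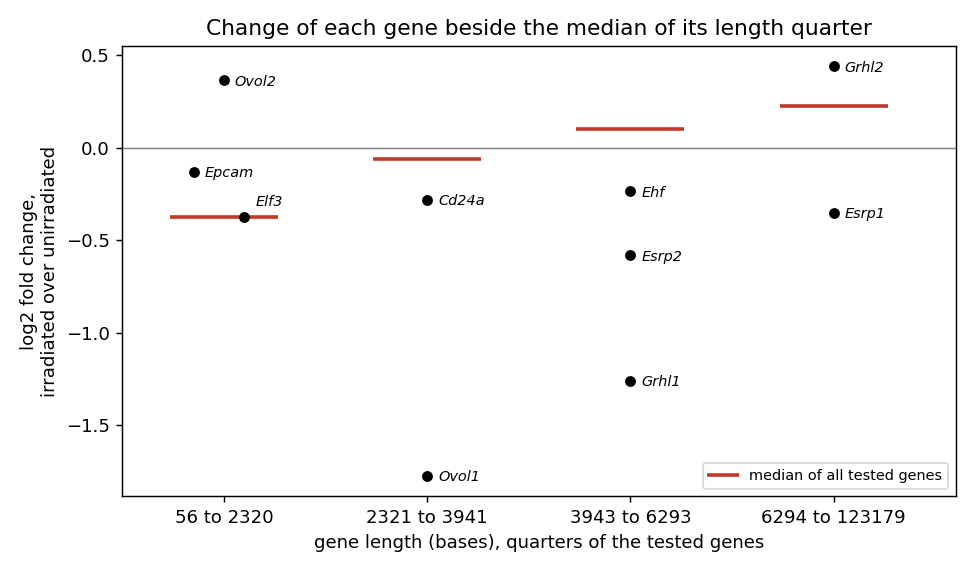
Log2 fold change of irradiated over unirradiated libraries for each gene (black points) beside the median of all tested genes in the same class of gene length (red bars). Elf3 lies near the median of its class, Epcam at -0.13 lies above its class's median of -0.38, and Ovol1, Grhl1, Esrp2 and Esrp1 lie well below theirs.

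Junction genes known to be activated by GRHL2 or to act beside these factors did not move one way. Of 25 tested, 8 were higher and 10 lower (median log2 fold change -0.03), where 33.9% of all tested genes were higher and 32.5% lower. Cdh1, encoding E-cadherin, rose to 808 and 792 CPM in irradiated libraries, against 636 and 637 CPM in unirradiated ones (log2 fold change 0.33), and Dsp, encoding the desmosome protein desmoplakin, rose to 312 and 290 CPM, against 186 and 184 CPM (0.70). Spint2, an inhibitor of membrane serine proteases, fell to 601 and 645 CPM in irradiated libraries, against 988 and 1050.2 CPM in unirradiated ones (-0.71). The polarity gene Crb3 fell (-0.57), and Lsr, a protein of tricellular junctions, rose (0.42).

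Keratins were read beside these genes. Krt8, a keratin of luminal cells, was at 2499.9 and 2629 CPM in irradiated and at 2554 and 2523 CPM in unirradiated libraries, with overlapping groups (log2 fold change 0.02, adjusted p = 0.710, edgeR's quasi-likelihood test). It was called higher without irradiated A (0.07) and with the length trend (0.20) or the length and GC trend (0.24) removed. Its partner Krt18 fell to 1413 and 1453 CPM in irradiated libraries, against 2031 and 2085 CPM in unirradiated ones (-0.52). Among the 19 luminal and basal epithelial markers 6 rose and 9 fell (median log2 fold change -0.11). Largest among them were the rises of Csn2, encoding beta-casein (7.73), Krt19 (2.71) and the secreted protein Wfdc2 (2.52), and the fall of the basal keratin Krt5 (-1.48).

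Of 18 partners and proteases of EPCAM, 9 were higher and 5 lower, where 33.9% of all tested genes were higher and 32.5% lower, and the median log2 fold change was 0.11. Against 1.5-fold 3 were higher and 2 lower, where 12.7% of all tested genes were higher and 11% lower. Tspan8, a tetraspanin, rose to 89.3 and 91.4 CPM in irradiated libraries, against 11.9 and 11.5 CPM in unirradiated ones (2.95), and Bace2, an aspartyl protease, to 21.5 and 18.5 CPM, against 3.70 and 3.24 CPM (2.5). Fhl2, which binds the intracellular fragment of human EPCAM, rose (1.00), and Lef1, a transcription factor of that complex, fell to 2.95 and 3.27 CPM in irradiated libraries, against 6.92 and 5.83 CPM (-1.04). The sheddases Adam10 (0.64) and Adam17 (0.50) and the catenin gene Ctnnb1 (0.63) also rose. These last 3 genes were chosen after their values were seen.

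Genes of the mesenchymal programme, which OVOL, GRHL and ESRP proteins are known to oppose, were mostly higher. Of 11 tested, 8 were higher and 1 was lower (median log2 fold change 1.01). Of the repressors of epithelial genes, Zeb1 was at 4.99 and 4.76 CPM in irradiated and 3.46 and 2.83 CPM in unirradiated libraries, and its log2 fold change of 0.60 lost its call in 7 of 14 alternatives, among them DESeq2, removal of the length trend and leaving out irradiated A, irradiated B or unirradiated B. Zeb2 rose to 9.68 and 9.64 CPM in irradiated libraries, against 4.71 and 5.42 CPM (0.94). Snai2 was higher (1.03), a call lost without unirradiated B (0.67) and with DESeq2 (adjusted p = 0.115). Snai1 was at 32.5 and 28.6 CPM in irradiated and 29.4 and 29.3 CPM in unirradiated libraries, with overlapping groups. It did not pass (0.05), but was called higher with the length trend (0.29) or the length and GC trend (0.31) removed.

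Twist1, a transcription factor of mesenchyme, rose to 39.6 and 37.0 CPM in irradiated libraries, against 3.88 and 3.07 CPM in unirradiated ones (3.43). Fn1, encoding fibronectin, rose (2.37), as did Vim, encoding vimentin (1.34), and the mesenchymal cadherin gene Cdh2 (1.31). The single gene that fell was Tcf4, encoding a basic helix-loop-helix factor, at 56.0 and 55.6 CPM in irradiated against 128 and 139 CPM in unirradiated libraries (-1.26), named after its values were seen. In the same libraries 10 of 13 tested fibroblast markers were higher and 1 lower, led by Pdpn (4.49), Lum (2.81), Pdgfra (2.10) and Col3a1 (2.05). The lower marker was Fbln1 (-0.61), and Pdgfrb (0.15) and Thy1 (0.03) did not pass, all named after their values were seen. Of 9 tested leukocyte and endothelial markers 8 were higher and 1 lower, with Kdr at 2.22, Cd14 at 2.03, Adgre1 at 1.93 and Cd8a at -3.39. Whether the mesenchymal genes came from epithelial cells or from fibroblasts, macrophages or vessels was not tested.

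**Figure D5:**
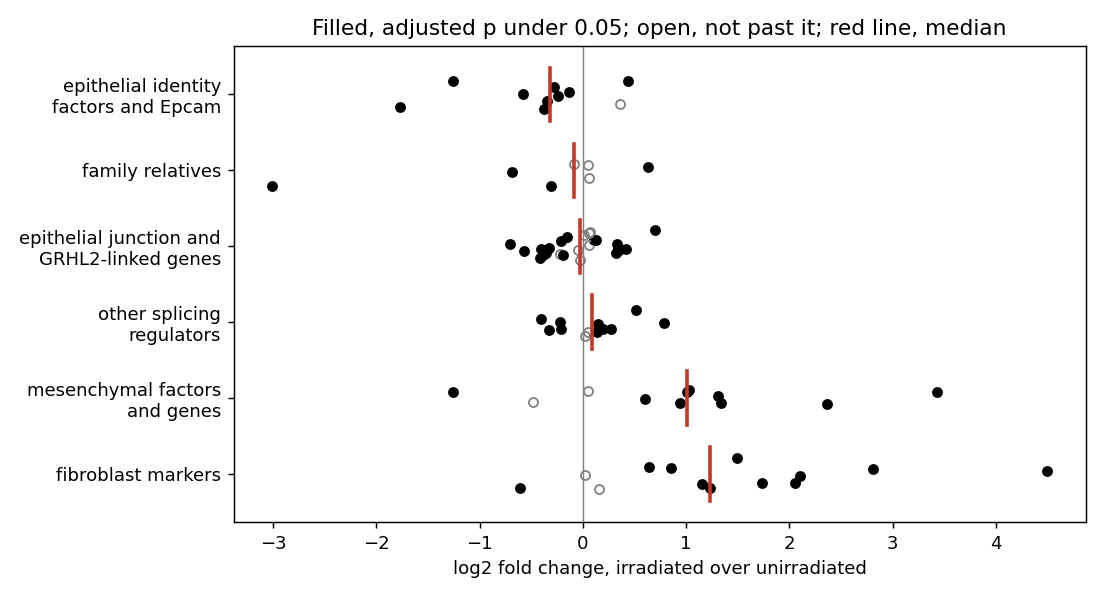
Log2 fold change of irradiated over unirradiated libraries for the tested genes of 6 lists, filled where the adjusted p was under 0.05 and open where not, with a red line at the median. The epithelial identity genes centre at -0.32, the junction genes at -0.03 and the mesenchymal genes at 1.01.

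Genes with the most similar profile were found by the smallest Euclidean distance between centred log2 (CPM + 0.5) values over the 4 libraries, among 9614 genes of at least 10 CPM. For Ovol1 these were Arhgef19, H1f0 and mt-Co1, at distances of 0.0481 to 0.0669, and for Grhl1 Hspa1b, Ass1 and Syf2, at 0.0356 to 0.0459. Hspa1b has a near-identical copy and is uncertain. For Grhl2 they were Rtel1, Fam84a and Dgkq, at 0.0492 to 0.0532, and for Epcam Fam104a, Dusp10 and Hnrnpdl, at 0.0136 to 0.0156. The nearest genes of others were Itm2c for Cd24a, Plin3 for Esrp1, Myzap for Ovol2, Gnb2 for Elf3 and Bclaf1 for Ehf. The 4 libraries fall in 2 groups, so the distances rest mostly on the difference between the groups.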

How the data were processed

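The authors deposited whole-number counts per gene and library, not normalized, with a gene length in bases per the file headers. The submitters' processing notes name the build mm10 and the tools HTSeq 0.6.1, STAR 2.5 and DESeq2, without settings. Per the labels' protocols poly(A) RNA was sequenced from libraries made without strand information. Counts were tested with edgeR 4.0.16 in R 4.3.3 (filterByExpr, TMM scaling, quasi-likelihood fit without legacy dispersion, Benjamini-Hochberg over 15961 genes, threshold 0.05), and all adjusted p-values are from it unless another tool is named. SE was taken as the size of the log2 fold change divided by the root of the F statistic. The fit had 2 residual and 60.0 prior degrees of freedom and was tested on simulated counts over 15581 genes for this comparison. There 31, 39, 46 and 50 of 50 genes changed 1.25, 1.5, 2 and 4-fold were recovered. Every simulated gene had the same dispersion, and genes with few counts were not changed. These rates thus do not cover more variable or less abundant genes. Levels between genes are CPM per kilobase of the deposited length. The median chi-square between libraries of a group was 2.14 and 2.11 times that expected from counting, so A and B were not 1 library deposited again, although the added spread may be technical. The members and lists were chosen with earlier results of these data known. Named genes are all members and tested relatives, the 4 largest called changes of each other list at 1 CPM or more, some genes chosen by name and the nearest profiles. GC content came from GENCODE M21 transcripts and smooth trends were fitted with mgcv 1.9.3. DESeq2 1.42.0 was an alternative. Promoters are RefSeq sequences, and protein sequences were not used here. Values of a few listed genes are not reported here.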

Additional observations from a re-analysis of the deposited data

How the results depend on the processing

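The counts of 8 lower and 1 higher genes became 7 or 8 and 1 under RLE and upper-quartile scaling, DESeq2, other filters, legacy dispersion (added after seeing the data), the length trend removed, and each library left out. With the length trend removed the higher gene was Ovol2 in place of Grhl2. With the length and GC trend removed 2 were higher and 7 lower, and against 1.5-fold 0 were higher and 2 lower. The letters A and B give no stated pairing, and deviations of same-lettered libraries correlated at 0.0116 across genes. With the replicate block 1 gene was higher and 8 lower, and 10618 of all genes were called in place of 10593. DESeq2 called 7917 of the 19531 genes it tested, and the test against 1.5-fold called 3786 of 15961. The direction turned with the length trend removed, and with the length and GC trend removed, for Epcam (log2 fold change 0.0444 and 0.10), Elf5 (-0.16 and -0.18), Elf1 (-0.18 and -0.18), Senp7 (-0.0272 and -0.0831) and Ubxn1 (0.0276 and 0.0502), and the cause was not tested. Against 1.5-fold, 12.7% of all tested genes were higher and 11% lower. Of the lists, the relatives then held 0 higher and 1 lower, junction genes 1 and 1, and EPCAM partners 3 and 2. Other splicing regulators held 1 and 0, and ESRP-spliced genes 1 and 0. Epithelial markers held 3 lower, fibroblast markers 0 lower, and leukocyte and endothelial markers 5 higher. The higher counts of epithelial and fibroblast markers stayed within a factor of 1.5 of the 6 and 10 called in the main test. DESeq2 gave 0 higher relatives and 2 lower splicing regulators. With the length trend removed the relatives held 0 higher and 5 lower, ESRP-spliced genes 1 and 5, and splicing regulators 2 higher. With the length and GC trend removed the relatives held 5 lower, ESRP-spliced genes 1 higher and 5 lower, and splicing regulators 2 higher and 7 lower. With no filter, leukocyte and endothelial markers and splicing regulators each held 2 lower. Leaving out 1 library gave 1 to 2 lower mesenchymal genes (2 without unirradiated A) and 1 to 2 lower leukocyte and endothelial markers (2 without irradiated A or unirradiated B). With 2 libraries a group, 1 count was worth 0.0421 to 0.0769 CPM, which limits Ovol2 most.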

Other observations

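Genes that overlap exons of the epithelial identity genes were read beside them, since the libraries carry no strand. 1810019D21Rik, which overlaps Esrp2, had 64 and 102 counts in irradiated and 247 and 155 counts in unirradiated libraries and fell (log2 fold change -1.78). Nfatc3, which also overlaps Esrp2, had 1142 and 1581 counts in irradiated and 785 and 527 counts in unirradiated libraries. Gm26642, overlapping Elf3, had 21 and 22 counts in irradiated and 36 and 21 counts in unirradiated libraries (-0.91, adjusted p = 0.0298, edgeR's quasi-likelihood test). Gm31166, overlapping Ovol1, had 5 and 19 counts in irradiated and 10 and 11 counts in unirradiated libraries and did not pass. Epcam, Cd24a, Grhl1 and Ehf have no overlapping gene in the annotation.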
